A study of Mus musculus with 6 samples.

Results

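The enzymes described are the conjugating families of phase II metabolism: the glutathione S-transferases, the UDP glycosyltransferases and the sulfotransferases. They were every gene of the count table whose symbol begins with Gst and a class letter (a, k, m, o, p, t or z), Mgst, Ugt or Sult, followed by a number, which gave 51 of 18238 genes. Of these, 22 encode soluble glutathione transferases, 3 microsomal ones, 12 UDP glycosyltransferases and 14 sulfotransferases. RNA was sequenced from 6 mice that carried lung cancer, with 1 library each. In 3 of them artemisinin was given (artemisinin replicates 1 to 3), and the other 3 are labelled only as the model (model replicates 1 to 3). Artemisinin is an endoperoxide lactone used against malaria. Strain, sex, age, the way the tumours were raised, the tissue sampled, dose and duration are not stated in the labels. Both groups share the cancer model.

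Conjugating enzymes attach a polar group to drugs, toxins, steroids and lipid products, which makes them easier to excrete. Glutathione transferases join the thiol of glutathione to reactive electrophiles, UDP glycosyltransferases transfer a sugar such as glucuronic acid in the endoplasmic reticulum, and sulfotransferases add sulfate from the donor PAPS. In the lung, club cells of the airway are known as a site of xenobiotic metabolism, and several of these genes are known targets of the stress-responsive factor NRF2.

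The main change was a fall of 3 glutathione transferase genes. Gstt1 and Gstt3, neighbouring theta class genes on chromosome 10, were 2.0-fold and 2.09-fold lower in treated mice, and Gstp3, a pi class gene on chromosome 19, was 3.26-fold lower. A gene is called where the quasi-likelihood test of edgeR gave it a Benjamini-Hochberg adjusted p below 0.05. Of the 51 genes, 31 had enough counts to be tested, and edgeR called 3 of these 31 lower and 0 higher. The 3 are 9.68%, beside 4.47% of all 15242 genes tested in either direction, 2.3% called lower and 2.17% called higher, and the difference between these shares was not tested. DESeq2 called 2 higher and 4 lower, where it called 15.1% of all genes, and limma-voom with sample weights 1 higher and 3 lower, where it called 7.39%.

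Depth ranged from 25566173 to 34745497 counts per library. The 51 genes together took between 0.157% and 0.225% of the counts, and 39 to 42 of them had at least 1 count in a library. The markers used to check the tissue were those of lung: the summed markers of alveolar type 2 cells, which make surfactant, were 60050 to 86600 normalised CPM in model mice and 10550 to 27490 in treated mice, with 5 of 10 called lower and 0 higher. Normalised CPM are counts on the CPM scale, with the library size multiplied by its TMM factor. Summed markers of club cells were 8525 to 21030 in model mice and 21480 to 74330 in treated mice, with 0 of 7 called. Most of this sum was Scgb1a1, at 7164 to 17640 in model mice and 18380 to 66750 in treated mice. Only Scgb1a1 and Hp of the 7 had groups apart, and Muc5b had a log2 fold change, treated over model, of −0.18. Smooth muscle markers were 258 to 398.9 in model mice and 1021 to 1831 in treated mice, with 6 of 6 called higher, and neutrophil markers were 87.59 to 134.2 and 713.5 to 4717, with 6 of 7 called higher. Each treated library stood apart in some list. Artemisinin replicate 1 had adipocyte markers at 318.9 normalised CPM, against 59.2 at most in the other libraries. Artemisinin replicate 2 had skeletal muscle markers at 4820, against 61.4 at most, and keratinocyte markers at 442.3, against 8.61 at most. Artemisinin replicate 3 had the 4717 of the neutrophil markers, against 1029 at most. In bulk tissue, fewer cells of a type and less RNA per cell cannot be told apart, which holds for every difference below.

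The promoters of the theta and pi genes are shown because these genes carry the changes, and because Gstp1 and Gstp2, which did not pass the test, lie beside Gstp3. Each window holds the 250 bases before the start of the gene, 5′ to 3′ on the gene's strand, from RefSeq on GRCm38.p6, and all 5 genes are on the minus strand. The RefSeq starts of Gstt1 and Gstp3 lie inside the gene spans given below, so their windows overlap those spans. The windows are chr10:75797732-75797981 for Gstt1, chr10:75781423-75781672 for Gstt3, chr19:4059448-4059697 for Gstp3, chr19:4037913-4038162 for Gstp1 and chr19:4042222-4042471 for Gstp2. Capitals mark matches, on either strand, to TGACNNNGC or TGAGNNNGC, the core letters of the element bound by NRF2, to GCGTG, the core bound by the aryl hydrocarbon receptor, or to TATAAA, the TATA box.
Gstt1: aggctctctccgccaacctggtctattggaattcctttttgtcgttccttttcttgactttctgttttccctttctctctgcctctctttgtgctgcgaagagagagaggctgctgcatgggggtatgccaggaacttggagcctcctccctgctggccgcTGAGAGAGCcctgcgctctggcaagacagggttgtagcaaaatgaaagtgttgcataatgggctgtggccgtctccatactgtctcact
Gstt3: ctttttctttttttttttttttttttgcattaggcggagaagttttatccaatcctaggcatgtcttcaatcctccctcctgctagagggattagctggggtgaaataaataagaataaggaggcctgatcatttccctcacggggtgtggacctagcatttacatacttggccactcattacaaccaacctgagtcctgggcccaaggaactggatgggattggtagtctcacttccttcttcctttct
Gstp3: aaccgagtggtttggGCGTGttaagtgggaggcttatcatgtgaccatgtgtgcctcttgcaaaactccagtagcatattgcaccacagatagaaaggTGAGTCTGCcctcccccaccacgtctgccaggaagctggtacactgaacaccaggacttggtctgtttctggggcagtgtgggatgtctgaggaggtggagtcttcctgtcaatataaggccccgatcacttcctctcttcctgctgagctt
Gstp1: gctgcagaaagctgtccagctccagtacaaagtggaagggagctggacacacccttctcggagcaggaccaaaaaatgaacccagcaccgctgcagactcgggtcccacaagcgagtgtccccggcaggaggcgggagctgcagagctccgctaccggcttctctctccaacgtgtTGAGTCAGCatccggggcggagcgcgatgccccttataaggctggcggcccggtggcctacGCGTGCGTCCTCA
Gstp2: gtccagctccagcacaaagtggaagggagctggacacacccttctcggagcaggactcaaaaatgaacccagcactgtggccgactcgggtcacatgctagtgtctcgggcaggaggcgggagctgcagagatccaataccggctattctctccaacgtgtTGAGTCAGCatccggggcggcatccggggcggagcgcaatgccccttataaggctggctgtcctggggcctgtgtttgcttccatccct

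The pi promoters differed in sequence. Gstp1 and Gstp2 had 78.1% identical columns in a global alignment, while Gstp3 had 136 of 272 with Gstp1 and 46.5% with Gstp2. Pairs of a theta and a pi promoter gave 43.6% to 45.2%, and Gstt1 with Gstt3 gave 44.9%. Gstp3 shared fewer columns with either neighbour than those neighbours shared with each other.

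Gstp1 and Gstp2 both held TGAGTCAGC, at bases 74 to 66 before the start in Gstp1 and 89 to 81 in Gstp2. Gstp3 held TGAGTCTGC at bases 152 to 144, Gstt1 held TGAGAGAGC at bases 89 to 81, and Gstt3 held no match to any of the motifs. The GCGTG matches lay at bases 13 to 9 in Gstp1, where 1 base is shared with a TGAGNNNGC match on the reverse strand, and at bases 235 to 231 in Gstp3. TGAGNNNGC occurred in 11 of 45 member promoters with an entry (24.4%) and in 14.2% of all 27025 windows of this length. TGACNNNGC occurred in 3 (6.7%, against 10.1%), GCGTG in 8 (17.8%, against 28.2%) and TATAAA in 7 (15.6%, against 13.0%). A match describes letters and not a bound site.

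**Figure D1:**
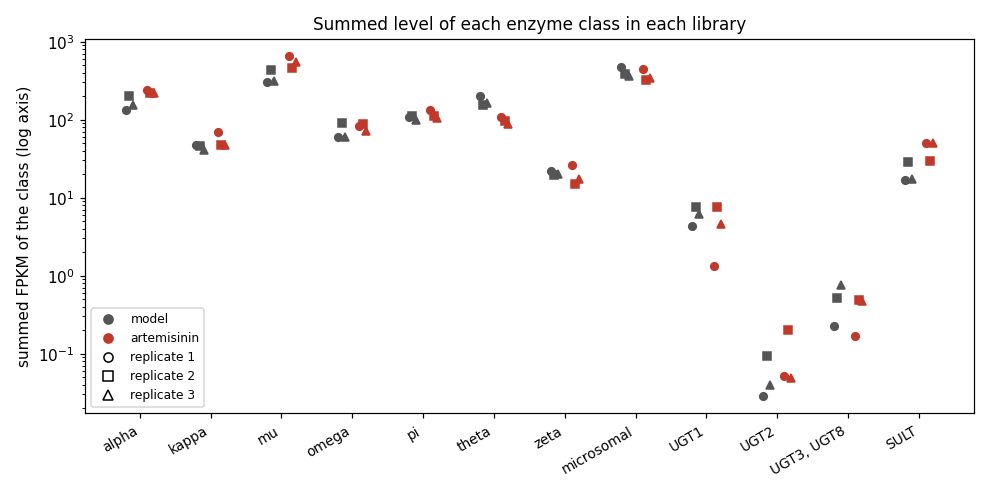
Summed FPKM of each enzyme class (x axis) in each of the 6 libraries, on a log axis, with model libraries in grey, artemisinin libraries in red and marker shapes for the replicates. The theta class is lower in every artemisinin library (89.1 to 108) than in every model library (153 to 200), and the Ugt1 class reaches at most 7.66 FPKM, against 14.8 at the lowest for the zeta class.

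Levels between genes are compared in FPKM, which are scaled by gene length and library total. Mean summed FPKM over the 6 libraries was 1040 for the soluble glutathione transferases, 387 for the microsomal ones, 32.1 for the sulfotransferases and 5.82 for the UDP glycosyltransferases. Mgst1, a membrane-bound transferase and peroxidase, had the highest mean at 343 FPKM and gave 23.5% of the sum over all 51 genes. Gstm1, a mu class enzyme, followed at 307 FPKM, then Gstm2 at 122, Gstp1 at 99.3, Gsta3 at 93.9 and Gsta4 at 92.3. Gstt1 stood at 87.7, Gstt3 at 27.8 and Gstp3 at 11.5 FPKM.

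Theta class enzymes act on small electrophiles such as halogenated alkanes. Gstt3 (chromosome 10, 75774117 to 75781422, GRCm38) had 78.4, 67.0 and 70.6 normalised CPM in model replicates 1, 2 and 3 and 36.7, 34.97 and 31.5 in artemisinin replicates 1, 2 and 3. The groups did not overlap, and the spread within each was small beside the gap. Gstt3 fell from 72.0 ± 5.81 to 34.4 ± 2.65 normalised CPM (SD over n = 3 mice each; log2 −1.07 ± 0.13, standard error; adjusted p in edgeR = 0.0132), where log2 stands for the log2 fold change, treated over model.

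Gstt1 (chromosome 10, 75783813 to 75798584) had 155.5, 110.3 and 121.9 normalised CPM in model mice and 63.1, 71.0 and 60.1 in treated mice. Every artemisinin value lay below every model value, with model replicate 1 the highest. It fell from 129 ± 23.5 to 64.7 ± 5.62 (SD over n = 3 mice each; log2 −0.997 ± 0.167, standard error; adjusted p in edgeR = 0.0262). The third expressed member, Gstt2, had 46.0, 32.5 and 34.7 in model mice and 41.3, 22.3 and 21.7 in treated mice. Its groups overlapped through artemisinin replicate 1, and it was not called (log2 −0.41 ± 0.28, standard error; adjusted p in edgeR = 0.4). Gstt4 had 6 counts, all in artemisinin replicate 1, and was not tested.

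The theta genes span 63.3 kb of chromosome 10, from 75774117 to 75837419. Within 150 kb on either side lie 11 other genes of the table, all tested, and none was called, with log2 fold changes from −0.33 to 1.15 and a median of 0.36. Ddt, a tautomerase gene beside Gstt3, and Mif, a cytokine gene beside Gstt2, had log2 fold changes of −0.07 and −0.02. Whether the theta genes differ from these neighbours was not tested.

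The pi class enzymes take up many electrophiles and are abundant in epithelia. Gstp3 (chromosome 19, 4057470 to 4059605) had 21.1, 13.2 and 17.2 normalised CPM in model mice and 5.76, 4.79 and 5.27 in treated mice. The groups were separated, and the artemisinin values lay close together. Gstp3 fell from 17.2 ± 3.97 to 5.27 ± 0.487 (SD over n = 3 mice each; log2 −1.70 ± 0.24, standard error; adjusted p in edgeR = 0.0182).

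Its neighbours were not called, and the difference between them and Gstp3 was not tested. Gstp1, the major pi gene (4035411 to 4037912), had 69.1, 74.6 and 63.1 normalised CPM in model mice and 87.8, 78.7 and 69.25 in treated mice, with overlapping groups (log2 0.19 ± 0.14, standard error; adjusted p in edgeR = 0.429). Gstp2 had 8, 16 and 2 counts in model mice and 26, 59 and 19 in treated mice, and was not called (log2 2.05 ± 0.83, standard error; adjusted p in edgeR = 0.186). Gstp1 and Gstp2 shared 62.3% and 64.3% of their 50-base transcript windows with each other, so reads may be split between them, whereas Gstp3 and Gstt1 shared no window with another gene. Gstt3 shared 476 windows, all with the gene model Gm20441. Within 150 kb of the pi genes 22 other genes were tested, 17 above 0 and 5 below, and 1 was called, Unc93b1, higher (log2 0.75; edgeR adjusted p = 0.0374).

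**Figure D2:**
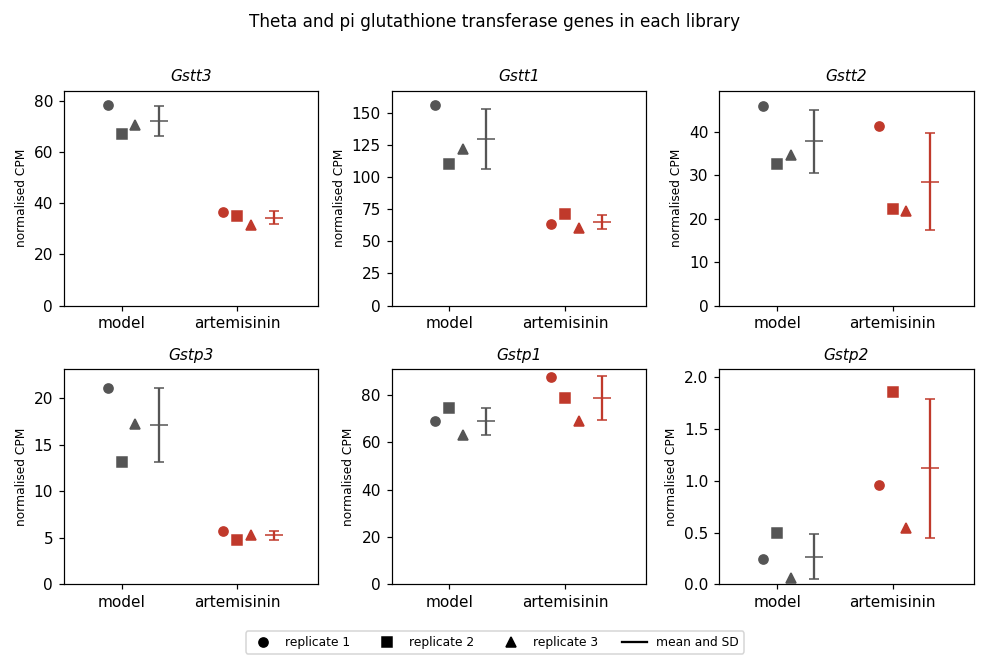
Normalised CPM (y axis, from 0) of 3 theta genes in the upper row and 3 pi genes in the lower row, with 1 point for each model (grey) or artemisinin (red) library, and the mean with its SD beside each group. Gstt3, Gstt1 and Gstp3 are lower in all 3 artemisinin libraries than in any model library, whereas Gstt2 and Gstp1 overlap.

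These calls depended on single libraries. With model replicate 1 or 3 left out, none of the 3 genes was called (adjusted p = 0.0724 and 0.074 for Gstt3, 0.0959 and 0.087 for Gstp3, 0.11 and 0.0988 for Gstt1 in edgeR), and only 17 and 23 genes of the whole table were. Gstt1 was also not called once artemisinin replicate 1, artemisinin replicate 3 or model replicate 2 was removed (edgeR adjusted p = 0.0617, 0.0536 and 0.0537). The log2 fold changes stayed between −1.15 and −0.93 for Gstt3, −1.13 and −0.85 for Gstt1, and −1.89 and −1.43 for Gstp3 over all 15 alternatives. Without artemisinin replicate 2, which held the muscle and keratinocyte markers, all 3 were called, with log2 fold changes of −1.08, −1.07 and −1.64 (edgeR adjusted p = 0.0153, 0.0253 and 0.0221). Over the 15 alternatives the adjusted p reached from 5.28e-10 to 0.074 for Gstt3, from 8.07e-06 to 0.11 for Gstt1 and from 2.18e-08 to 0.0959 for Gstp3. In the same libraries the alveolar type 2 markers were lower and the smooth muscle and neutrophil markers higher, as given above, and their part in these falls was not tested.

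The mu class is a cluster of 7 genes on chromosome 3, of which 6 had log2 fold changes above 0 and none was called. Gstm1 had 256.5, 358 and 287 normalised CPM in model mice and 522, 378 and 423 in treated mice (log2 0.55 ± 0.20, standard error; adjusted p in edgeR = 0.156). Model replicate 2 came close to artemisinin replicate 2, although the groups did not overlap. Gstm7 had 2.43, 3.15 and 3.025 in model mice and 5.69, 5.955 and 5.18 in treated mice, well apart but at a low level (log2 0.97 ± 0.29, standard error; adjusted p in edgeR = 0.107). Gstm7 was called higher by DESeq2 (adjusted p = 0.00832) and by limma on log2(FPKM + 0.1) (adjusted p = 0.0336), and in 4 of the 15 alternatives in all. Its adjusted p ranged from 0.00832 to 0.312 over the 15 alternatives.

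Gstm2 and Gstm6 had log2 fold changes of 0.52 ± 0.22 and 1.22 ± 0.49 (standard error; adjusted p in edgeR = 0.206 and 0.185), and Gstm3 and Gstm5 of 0.69 and 0.75. Gstm4, at 14.8 ± 2.89 normalised CPM in model mice and 13.2 ± 3.05 in treated mice (SD over n = 3 mice each), was the mu gene below 0, at −0.16. Gstm1 and Gstm3 shared 23.1% and 28.8% of their windows with other gene models, so their levels are less certain than those of Gstm4, Gstm5 and Gstm7, which shared none.

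Alpha class enzymes reduce lipid peroxides and conjugate their aldehydes. Gsta3 and Gsta4 carried most of the class, at 136 ± 34.6 and 78.8 ± 11.3 normalised CPM in model mice and 168 ± 38.5 and 97.6 ± 27.6 in treated mice (SD over n = 3 mice each). Neither was called (log2 0.30 ± 0.25 and 0.31 ± 0.23, standard error; adjusted p in edgeR = 0.465 and 0.429). Gsta2 varied more, with 0.85, 7.81 and 3.37 in model mice and 17.2, 12.1 and 6.58 in treated mice.

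The Gsta2 groups overlapped between model replicate 2 and artemisinin replicate 3 (log2 1.57 ± 0.73, standard error; adjusted p in edgeR = 0.231). Gsta1 had 72 counts in all, 60 of them in artemisinin replicate 2, and was not tested. Gsta1 and Gsta2 shared 89.7% and 64.2% of their windows with other genes, among them each other, so neither level can be assigned with confidence.

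No gene of the other soluble classes was called. Kappa (Gstk1, a mitochondrial enzyme), omega (Gsto1 and Gsto2, which act as reductases) and zeta (Gstz1, which works in tyrosine breakdown) had log2 fold changes of 0.17 ± 0.17, 0.10 ± 0.19, 0.84 ± 0.56 and −0.18 ± 0.20 (SE), with overlapping groups and edgeR adjusted p = 0.56, 0.775, 0.383 and 0.592. Gsto1 gave 98.9% of the omega FPKM, and Gsto2 stood at 0.97 ± 0.285 normalised CPM in model mice (SD, n = 3).

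The microsomal enzymes are membrane proteins related to leukotriene C4 synthase. Mgst1 had 540.7, 413 and 399 normalised CPM in model mice and 449, 331 and 338 in treated mice, overlapping through artemisinin replicate 1 (log2 −0.28 ± 0.21, standard error; adjusted p in edgeR = 0.432). Mgst2, which can itself make leukotriene C4, had 21.1, 24.98 and 16.8 in model mice and 14.9, 11.1 and 11.6 in treated mice. These groups were apart, but Mgst2 was not called (log2 −0.74 ± 0.22, standard error; adjusted p in edgeR = 0.0999), except by DESeq2 (adjusted p = 0.021, against 0.287 at the highest of the 15 alternatives). Mgst3 stood at 34.0 ± 1.77 in model mice and 42.0 ± 9.10 in treated mice (SD over n = 3 mice each; edgeR adjusted p = 0.323).

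**Figure D3:**
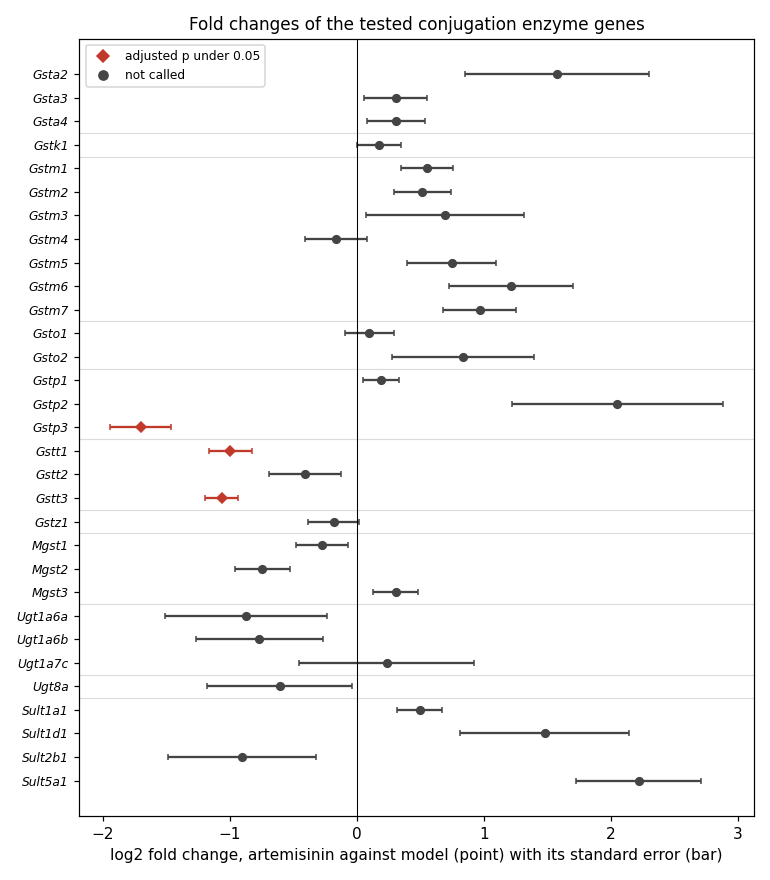
Log2 fold change of artemisinin against model (x axis) with its standard error as the bar, for each of the 31 tested genes (y axis), grouped by class. Red diamonds mark Gstp3, Gstt1 and Gstt3, the genes with an adjusted p under 0.05, and 19 of the 31 points lie above 0.

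Among sulfotransferases, 4 of 14 genes were tested and none was called. Sult5a1, an enzyme of little-known substrate, came closest, with 2.065, 1.79 and 1.355 normalised CPM in model mice and 14.0, 4.695 and 5.64 in treated mice. All artemisinin values were higher, with replicate 1 far above the other two, and the test just missed the threshold (log2 2.22 ± 0.49, standard error; adjusted p in edgeR = 0.0514). The adjusted p ranged from 0.000287 with DESeq2 to 0.195 without model replicate 3. It passed in 5 of the 15 alternatives, among them scaling by library totals (adjusted p = 0.047) and edgeR without artemisinin replicate 2 (adjusted p = 0.0285). Without artemisinin replicate 1 the log2 fold change was 1.57.

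Sult1d1, which sulfates catecholamines and eicosanoids, was the most abundant sulfotransferase, with 48.5% of the summed FPKM of the family. It had 5.89, 36.65 and 14.9 normalised CPM in model mice and 53.8, 25.1 and 81.3 in treated mice. The groups overlapped (log2 1.48 ± 0.67, standard error; adjusted p in edgeR = 0.222). Sult1a1, the phenol sulfotransferase, was 34.3 ± 3.97 in model mice and 48.3 ± 8.95 in treated mice (SD over n = 3 mice each; edgeR adjusted p = 0.149). Sult2b1, which sulfates cholesterol, was 8.38 ± 1.62 and 4.47 ± 3.84, where artemisinin replicate 2 stood at 8.85, against 2.88 and 1.69 in artemisinin replicates 1 and 3. Without artemisinin replicate 2, edgeR called Sult2b1 lower (adjusted p = 0.0358, against 0.602 at the highest of the 15 alternatives).

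**Figure D4:**
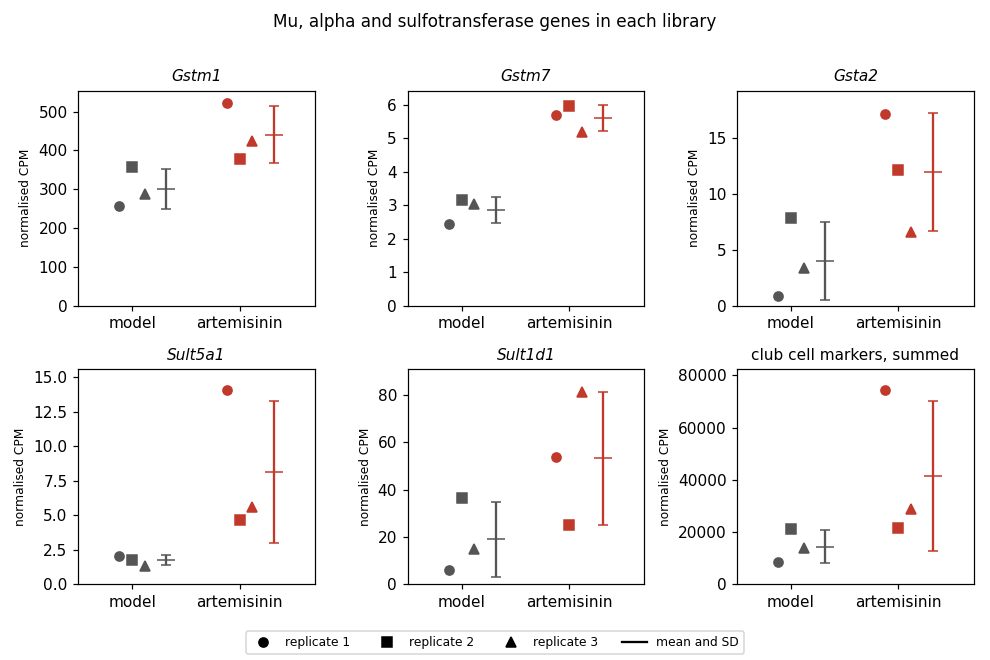
Normalised CPM (y axis, from 0) of Gstm1, Gstm7, Gsta2, Sult5a1 and Sult1d1 and of the 7 club cell markers summed, with 1 point for each model (grey) or artemisinin (red) library and the mean with its SD beside each group. Gstm1, Gstm7 and Sult5a1 separate the groups without passing the test, and Gsta2 and Sult1d1 overlap. In the model group the club markers, Gstm1, Gstm7, Gsta2 and Sult1d1 are all highest in replicate 2 and lowest in replicate 1.

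The order of the libraries by club cell markers was compared with their order by some of these genes. The share of all genes with the same order was not counted. In the model group the summed club markers were 8525, 21030 and 13790 normalised CPM in replicates 1, 2 and 3, and Gstm1, Gsta2 and Sult1d1 had the same order. With artemisinin the club markers were 74330, 21480 and 28790 in replicates 1, 2 and 3, an order that Gstm1 and Sult5a1 shared but Gsta2 and Sult1d1 did not. Sult5a1 did not follow the club markers in the model group, where its highest value was in replicate 1. Gstm7 shared the club order in the model group but not with artemisinin. The order was not particular to the club list: summed ciliated cell and adipocyte markers had it in both groups. Summed olfactory epithelium markers had it too, but most of that sum was 1 gene, Cyp2a5. Cyp2a5 had 3.10, 17.9 and 7.53 normalised CPM in model mice, where the sum was 4.13, 20.0 and 9.20. In treated mice it had 81.2, 5.89 and 47.2, where the sum was 84.1, 8.19 and 49.3. Ciliated cell markers were 292.9, 538.1 and 455.6 in model mice and 924.2, 603.1 and 719.8 in treated mice. The part of RNA from club cells or other cell types in these levels was not tested.

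UDP glycosyltransferases were scarce. Of 12 genes, 4 were tested and none was called. The Ugt1a genes, which make enzymes that conjugate bilirubin and phenols, are read from separate first exons joined to shared later exons on chromosome 1. In the GENCODE transcripts used here, Ugt1a6a shared 100% of its windows with other Ugt1a genes and Ugt1a6b 80.7%, so counts of single Ugt1a genes are uncertain.

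Ugt1a6a was 10.1 ± 4.41 normalised CPM in model mice and 5.48 ± 4.17 in treated mice, Ugt1a6b 4.31 ± 0.503 and 2.52 ± 1.44, and Ugt1a7c 4.34 ± 0.199 and 5.11 ± 4.83 (SD over n = 3 mice each). Their edgeR adjusted p were 0.423, 0.375 and 0.848. Artemisinin replicate 1 was the lowest library for all 3 genes, at 1.55, 0.998 and 1.15 normalised CPM, and summed FPKM of the 5 Ugt1 genes was 1.34 there against 4.37 to 7.66 in the other 5 libraries. The sign for Ugt1a7c varied over the 15 alternatives, with log2 fold changes from −0.84 to 0.71. Ugt8a, the galactosyltransferase of myelin lipids, was 3.97 ± 2.10 in model mice and 2.60 ± 1.21 in treated mice (edgeR adjusted p = 0.531). The 4 Ugt2 genes summed to at most 0.199 FPKM in any library.

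The 20 genes outside the test had between 1 and 72 counts in all 6 libraries together, with a median of 6, and 13 had at most 10. For 9 of them all counts came from 1 library. Ugt1a2 had 10 counts and Ugt3a2 had 5, all in artemisinin replicate 2, and Sult1b1 had 13 of its 14 counts in artemisinin replicate 1. Model counts were 0 for 7 of these genes and artemisinin counts were 0 for 4, where 3 counts correspond to 0.0863 to 0.117 CPM depending on the library. These levels are too low to show a difference at this depth.

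Over all 31 tested genes the groups did not overlap for 10 (32.3%), 6 higher and 4 lower, close to the 33.6% of all genes tested. Without adjustment, 10 had p under 0.05 in edgeR, 6 higher and 4 lower, beside 24.7% of all genes. The median log2 fold change of the 31 was 0.24, against 0.04 over all genes. The 20 soluble glutathione transferases tested had a median of 0.31, with 14 above 0 and 6 below, beside 8104 above and 7138 below over all genes.

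Genes that work alongside these enzymes were taken from 7 lists of 75 genes. Of 71 tested, 1 was lower and 0 were higher in edgeR, 1.41%, beside 4.47% of all genes tested. Without adjustment, 10 were higher and 10 lower at p under 0.05 in edgeR, where 24.7% of all genes had such a p. DESeq2 called 4 higher and 4 lower, limma-voom with sample weights 2 and 3, and limma on log2(FPKM + 0.1) 1 and 1, in fits that called 15.1%, 7.39% and 4.77% of all genes. The gene called was Hnmt, the methyltransferase that inactivates histamine, which fell from 46.7 ± 4.54 to 19.8 ± 6.18 normalised CPM (SD over n = 3 mice each; log2 −1.24 ± 0.23, standard error; adjusted p in edgeR = 0.0326). Hnmt was not called once artemisinin replicate 1 or 3, or model replicate 1, 2 or 3, was removed (edgeR adjusted p = 0.0801, 0.0527, 0.144, 0.075 and 0.131).

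In the NRF2 list 0 of 15 genes were called. Nfe2l2, which encodes NRF2, averaged 209 normalised CPM in model mice and 154 in treated mice (log2 −0.44 ± 0.18, standard error; adjusted p in edgeR = 0.188), and Keap1, its inhibitor, was 76.1 ± 2.77 and 75.3 ± 1.72 (edgeR adjusted p = 0.943). Nqo1, a quinone reductase, had a log2 fold change of 0.72 ± 0.44 (SE). The subunits of glutamate cysteine ligase, which makes the precursor of glutathione, had values of opposite sign, −0.63 ± 0.22 for the catalytic Gclc and 0.40 ± 0.15 for the modifier Gclm (standard error; adjusted p in edgeR = 0.14 and 0.165). Gclc was called lower by DESeq2 (adjusted p = 0.0428) and by limma-voom with sample weights (adjusted p = 0.0311), against 0.347 at the highest of the 15 alternatives.

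Cofactor supply, with 0 of 11 called, included Ugdh, which makes UDP-glucuronic acid, at a log2 fold change of 0.18 ± 0.13, and the PAPS synthases Papss1 and Papss2 at −0.49 ± 0.18 and 0.48 ± 0.24 (standard error; adjusted p in edgeR = 0.416, 0.147 and 0.261). Papss1 was called lower without artemisinin replicate 2 (adjusted p in edgeR = 0.0481, against 0.366 at the highest of the 15 alternatives). None of 7 export pumps, 6 hydrolases, 9 xenobiotic receptors and partners or 15 phase I enzymes tested was called, while 1 of 8 other conjugation enzymes was. Of the genes not called in the lists, the pump gene Abcb1b, the cofactor supply gene Ggt5 and the phase I gene Cyp2e1 came nearest the threshold. Their log2 fold changes were 0.999, −1.48 and 2.71 (adjusted p in edgeR = 0.0519, 0.0543 and 0.0552). Ahr, the aryl hydrocarbon receptor, was at −0.09 ± 0.15 (SE). Cyp2f2, a club cell cytochrome that is also among the club markers, was 1140 ± 683 normalised CPM in model mice and 2110 ± 520 in treated mice (SD over n = 3 mice each; edgeR adjusted p = 0.263). Of the 15 phase I genes 14 had log2 fold changes above 0, with a median of 0.38, beside 8104 of all 15242 genes tested and a median of 0.04. The difference between these shares was not tested, and the list was written with earlier results known.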

How the data were processed

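Total RNA from 6 mice was sequenced, per the labels' protocols, from TruSeq Stranded mRNA libraries. The genome build was GRCm38 (mm10), per the submitters' processing notes. Aligner, counting tool, annotation and strand setting: not given in the sources used here. Reads of overlapping genes may therefore be mixed. The authors deposited raw read counts per gene and FPKM, for 18238 genes and 6 libraries. The deposited FPKM followed from the counts, library totals and 1 factor per gene to within a relative 5.1e-07 (15473 genes), so they are no independent measurement.

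The test was edgeR 4.0.16 under R 4.3.3, using filterByExpr, TMM, robust glmQLFit and glmQLFTest on 15242 genes. Its p-values were Benjamini-Hochberg adjusted over all of them and read at 0.05. The edgeR fit with and without the replicate block, DESeq2, limma-voom and filtered limma on log2(FPKM + 0.1) were tried on simulated data. These trials set no limit on false calls, and their outcome is not given here. The simulation gave both groups the same spread, and the other settings were not simulated. An exact permutation test with 3 mice per group reaches 0.1 at the lowest, so p-values rest on the spread shared across genes. The edgeR fit also takes the spread of a gene as equal in both groups. Estimated apart, the common biological coefficient of variation was 0.389 in artemisinin and 0.211 in model libraries. Alternatives were DESeq2 1.42.0, limma 3.58.1 (voom with sample weights, and trend on log2(FPKM + 0.1) or log2(FPKM + 1) at a mean of at least 0.5 FPKM or unfiltered, scales that understate low genes), other scaling, no filter, a replicate block and each library left out. Depth was 25566173 to 34745497 counts.

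Genes were chosen, and lists written, with earlier results of these data known. Named by rule were called genes, the 2 most abundant per class at 0.5 FPKM or more, the 8 largest changes at 1 CPM or more, called companion genes, and Nfe2l2, Keap1, Nqo1, Gclc, Gclm, Ugdh, Papss1, Papss2, Ahr and Cyp2f2. Other members, Ddt, Mif, Unc93b1, Abcb1b, Ggt5, Cyp2e1, Cyp2a5, Scgb1a1, Hp and Muc5b were named after their values were seen. Entrez numbers of all 51 members matched the GRCm38.p6 gene table. Windows of 50 bases came from the longest coding GENCODE M21 transcript of each gene. Promoter alignments used Biopython 1.88.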

Additional observations from a re-analysis of the deposited data

How the results depend on the processing

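Over 15 alternatives, Gstt3, Gstp3 and Gstt1 stayed below 0 and were called in 13, 12 and 9. The count of 3 members lower became 1 with the replicate block, where Gstt3 was called (adjusted p = 0.0494) and Gstp3 and Gstt1 were not (0.0515 and 0.0687). The replicate numbers share no stated origin: same-numbered libraries' deviations correlated at −0.004, −0.103 and 0.03, and not every library matched its own number best. The block cut the calls over all genes from 682 to 128, and left 0 companion genes lower. It left the count of members higher at 0. The count of 0 members higher became 2 with DESeq2, 1 with library totals, 1 with limma-voom with sample weights, and 2, 1 and 1 with limma on log2(FPKM + 0.1), on log2(FPKM + 1) and without filter, in fits that called 15.1%, 5.14%, 7.39%, 4.77%, 4.4% and 2.4% of all genes in either direction, against 4.47% as reported. With library totals the split was therefore 1 higher and 3 lower, and the median over the whole table moved from 0.04 to 0.15 (log2). Leaving out each library gave 0 to 1 members higher and 0 to 4 lower, and 0 to 2 companion genes higher and 0 to 3 lower. These fits called from 0.11% of all genes (without model replicate 1) to 8.96% (without artemisinin replicate 2). The highest of these member and companion counts came from the fit without artemisinin replicate 2. Companion genes higher, 0 as reported, were 4 with DESeq2, 1 with library totals, 2 with limma-voom with sample weights, and 1 and 1 with limma on log2(FPKM + 0.1) and on log2(FPKM + 1). Companion genes lower, 1 as reported, were 4 with DESeq2, 3 with limma-voom and 0 with the replicate block.

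Beside Ugt1a7c, signs turned for 4 genes named by rule that were not called. Keap1 was 0.094 with library totals, 0.004 with limma-voom, 0.087, 0.082 and 0.087 with limma on FPKM (pseudocount 0.1, pseudocount 1, no filter), and, over the left-out libraries, −0.073 (model replicate 2) to 0.004 (artemisinin replicate 1), with 0.003 without model replicate 1. Ahr was 0.019 with library totals and 0.023, 0.021 and 0.023 with limma on FPKM. Over the left-out libraries Gstk1 ranged from −0.006 (without artemisinin replicate 1) to 0.237, and Gsto1 from −0.008 (without model replicate 3) to 0.272. The cause of these changes was not tested, and fits that leave out a library also have fewer mice. Depth limits the 20 untested genes, which have at most 72 counts.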
